A study of Mus musculus with 4 samples.

Results

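The 10 genes followed here are genes of effector T cells, of 14934 genes in the count table: the galectins Lgals1 and Lgals3, the S100 genes S100a4, S100a6, S100a10 and S100a11, the annexins Anxa1 and Anxa2, the filament gene Vim and the thymosin gene Tmsb4x. Lgals1 and Tmsb4x were chosen because they were high in JAML-positive replicate A, so their values in that contrast are a description and carry no test. The other 8 genes were taken as related small cytoskeletal and calcium-binding genes. All 10 were in the table and passed the filter on low counts, which left 11563 tested genes. The study compared JAML-positive with JAML-negative CD8 T cells, both sorted by flow cytometry from hepatocellular carcinoma of wild-type mice, with 2 bulk RNA libraries per group named A and B. JAML is an adhesion receptor of the immunoglobulin superfamily. The labels give neither the tumour model, strain, age nor the animals behind A and B, so p-values measure the spread between libraries, which may be technical.

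Effector T cells carry more messenger RNA for a set of small secreted or cortical proteins than naive cells do. Galectins bind galactose-containing sugars of surface glycoproteins. S100 proteins are small EF-hand proteins, and annexins bind phospholipid membranes in the presence of calcium. S100 proteins pair with annexins, S100A10 with annexin A2 and S100A11 with annexin A1. Vimentin builds the intermediate filaments of migrating lymphocytes, and thymosin beta 4 holds actin monomers in reserve.

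Libraries held 27717149 and 30569728 counts in JAML-positive A and B, and 27819178 and 27530187 in JAML-negative A and B. JAML-positive A stood apart from the others: genes of ribosomal proteins made up 12.68% of its total, against 7.805% in JAML-positive B and 8.723% and 8.628% in JAML-negative A and B. Malat1, a nuclear RNA, took 0.0703% in JAML-positive A, 0.12% in JAML-positive B, and 0.146% and 0.142% in JAML-negative A and B. Transcripts of the sort marker Jaml were at 137 and 147 CPM (counts scaled to the library total) in JAML-positive and 130.4 and 116 CPM in JAML-negative A and B (log2 fold change 0.20, SE 0.26, edgeR adjusted p = 0.881). The 8 CD8 T cell markers measured summed to 4569 and 3979 CPM in JAML-positive and 4141 and 4244 CPM in JAML-negative A and B.

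The S100 members lie on chromosome 3 in 2 pairs (GRCm38). S100a4 (90603770 to 90606045) is separated from S100a6 (90612894 to 90614414) by 6848 bases that hold S100a5. S100a11 (93520496 to 93526288) lies 28828 bases from S100a10 (93555117 to 93564645). Lgals1 is on chromosome 15 (78926725 to 78930465), Lgals3 on 14 (47373860 to 47386167), Anxa1 on 19 (20373434 to 20390671), Anxa2 on 9 (69453683 to 69491792), Vim on 2 (13574311 to 13582826) and Tmsb4x on X (167207093 to 167213479). Exons of S100a4 share 51.7% of their bases with Gm42674 on the same strand, and those of Anxa2 2.6% with Gm16144 on the opposite strand. Pseudogene copies are annotated for Lgals1 (Lgals1-ps1 and Lgals1-ps2) and S100a11 (S100a11-ps). How such reads were counted is not given in the sources used here.

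RefSeq windows of the 250 bases before the transcription start (GRCm38.p6) were matched for 8 of the 10 genes. The window of Tmsb4x lies at a start inside the annotated span of the gene. Shown are the neighbours S100a4 and S100a6, whose levels differed in pattern, Tmsb4x, which was high in JAML-positive A, and Vim, which was level in the 4 libraries. Capitals mark matches, on both strands, to 4 motifs. They are the letters TATAAA of the box near many starts, the letters CCAAT that bind factor NF-Y, the letters GGGCGG of the box bound by Sp1, and the letters TGANTCA bound by AP-1, and no match overlaps another.
S100a4 (chr3:90603520-90603769, plus strand): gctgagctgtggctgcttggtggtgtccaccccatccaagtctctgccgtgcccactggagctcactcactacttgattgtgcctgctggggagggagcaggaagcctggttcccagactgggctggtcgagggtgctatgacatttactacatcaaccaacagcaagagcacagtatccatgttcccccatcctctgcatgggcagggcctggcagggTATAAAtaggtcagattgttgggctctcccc
S100a6 (chr3:90612644-90612893, plus strand): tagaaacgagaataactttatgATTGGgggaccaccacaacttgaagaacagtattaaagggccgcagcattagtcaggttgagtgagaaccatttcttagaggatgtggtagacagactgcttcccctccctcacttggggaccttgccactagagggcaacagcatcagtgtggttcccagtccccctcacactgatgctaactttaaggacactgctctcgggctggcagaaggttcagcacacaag
Tmsb4x (chrX:167209219-167209468, minus strand): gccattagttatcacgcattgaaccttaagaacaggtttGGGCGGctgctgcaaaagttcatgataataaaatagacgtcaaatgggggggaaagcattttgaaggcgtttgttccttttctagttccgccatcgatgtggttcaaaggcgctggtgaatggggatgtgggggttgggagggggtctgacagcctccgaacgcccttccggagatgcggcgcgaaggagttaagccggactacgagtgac
Vim (chr2:13574061-13574310, plus strand): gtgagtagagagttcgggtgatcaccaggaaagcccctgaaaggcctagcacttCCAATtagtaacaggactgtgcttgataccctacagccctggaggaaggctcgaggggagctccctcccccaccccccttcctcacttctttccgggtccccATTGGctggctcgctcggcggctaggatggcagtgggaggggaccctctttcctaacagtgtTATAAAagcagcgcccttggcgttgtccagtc

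TATAAA began 31 bases before the start in S100a4 and 32 bases before it in Vim. It was also found in the windows of Anxa1 (32 bases) and Anxa2 (17 bases), so 4 of 8 windows held it, against 12.4% of 32817 mouse windows of that length. Of the windows shown, S100a6 held 1 CCAAT match on the minus strand, Vim 2 CCAAT matches and Tmsb4x 1 GC box. The AP-1 letters were in the windows of S100a11 and Anxa2, against 6.75% of all windows. CCAAT was in the windows of Lgals3, S100a6 and Vim, against 33.8% of all windows. GGGCGG was in those of Lgals3, S100a11, Anxa2 and Tmsb4x, against 32.7% of all windows. Windows with TATAAA belonged both to a gene that was high in JAML-positive A (S100a4) and to one that was level (Vim).

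None of the 10 genes passed the test between JAML-positive and JAML-negative cells, as 0 of all 11563 tested genes did (0.0%, edgeR quasi-likelihood test with Benjamini-Hochberg adjustment, smallest adjusted p = 0.227). At an unadjusted p under 0.05 there were 885 genes (7.65%; 4.32% higher and 3.34% lower), among them 1 of the 10, Anxa1, which was higher. DESeq2 called 835 of 12328 genes (6.77%) and limma-voom 0, and neither called any of the 10. By edgeR 9 of the 10 had a positive log2 fold change, against 50.7% of all tested genes, with a median of 0.31 against 0.01. The median was also 0.31 over all 565 tested genes whose longest transcript is under 1000 nucleotides, a class that holds 6 of the 10. With trends of transcript length and GC content removed, 6 of the 10 had a positive value and their median was 0.10. The count was 4 of 10 without JAML-positive A, with a median of -0.03, and 10 of 10 without JAML-positive B, with a median of 0.62. JAML-positive A held the highest level of the 4 libraries for 9 of the 10 genes, against 27.1% of all tested genes. That share was 51.9% of genes under 1000 nucleotides and 41.3% of those from 1000 to 2000 nucleotides, the class of Lgals3 and Anxa1. Lgals1 and Tmsb4x were chosen by that pattern. Groups did not overlap for 2 of the 10, S100a11 and Anxa1, both higher in JAML-positive cells, against 20.3% of all genes in that direction, and 0 of the 10 were lower without overlap, against 18.2%. JAML-positive A exceeded the JAML-negative mean by more than 0.5 on the log2 scale for 5 of the 10, against 33.7% of all genes. They were Lgals1 and Tmsb4x, chosen for that level, and S100a4, S100a10 and Anxa1. The median of that difference was 0.80 over tested genes under 1000 nucleotides. JAML-positive B exceeded the JAML-negative mean by more than 0.5 for 1 of the 10, Anxa1, against 29.7% of all genes. Together the 10 genes took 0.88% and 0.585% of counts in JAML-positive A and B, and 0.559% and 0.595% in JAML-negative A and B. Most of that total came from genes chosen for their level in JAML-positive A. Of the 243854 counts of the 10 genes there, Tmsb4x held 143394 and Lgals1 23582.

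**Figure D1:**
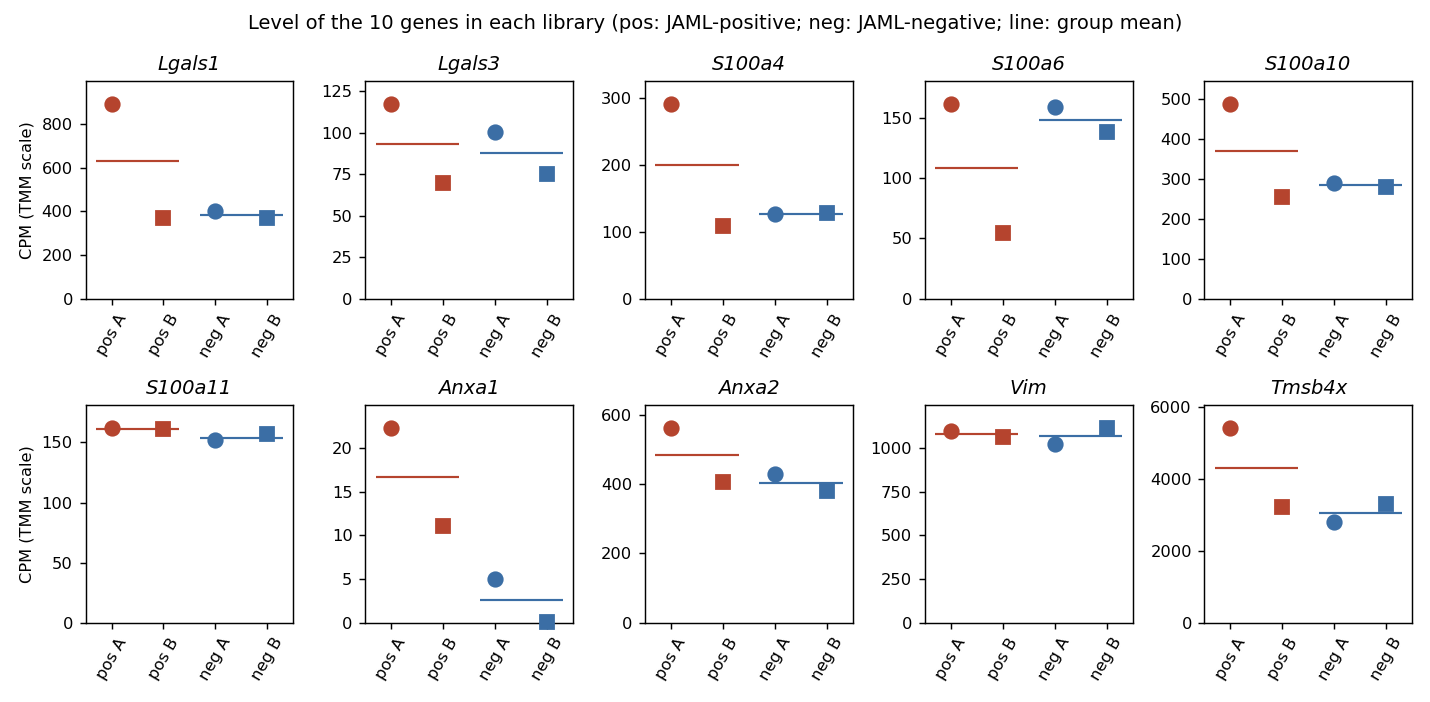
Level of each of the 10 genes in each library, in CPM scaled by trimmed mean of M values (TMM), with JAML-positive libraries in red, JAML-negative in blue, circles for replicate A, squares for B and lines for group means. JAML-positive A is the highest library for every gene except Vim, and JAML-positive B lies below both JAML-negative libraries for 5 genes (for Lgals1 level with JAML-negative B), between them for Anxa2, Vim and Tmsb4x, and above both for S100a11 and Anxa1.

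The galectins differed in how far JAML-positive A stood out. Lgals1 encodes galectin-1, a lectin made by activated T cells. It was at 890.0 and 368 CPM in JAML-positive A and B (23582 and 11538 counts), against 403 and 368 CPM in JAML-negative A and B (11421 and 10158 counts). JAML-positive A alone was high, at 2.31 times the JAML-negative mean, and JAML-positive B was at 0.954 times it, level with JAML-negative B. The mean was 629 ± 369 CPM in JAML-positive and 386 ± 24.9 CPM in JAML-negative cells (SD, n = 2 each), a log2 fold change of 0.70 (SE 0.33). It was 1.21 without JAML-positive B and -0.06 without JAML-positive A. Lgals3 encodes galectin-3, a lectin that can cross-link glycoproteins into lattices. It was at 117 and 69.6 CPM in JAML-positive A and B, against 100.2 and 75.0 CPM in JAML-negative A and B. Replicate A was above replicate B in both groups, and the groups overlapped (log2 fold change 0.07, SE 0.35, edgeR adjusted p = 0.974). Per kilobase of the longest transcript, Lgals1 averaged 634 CPM over the 4 libraries and Lgals3 63.7 CPM.

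Of the 4 other genes tested in the galectin family list, 1 had a higher and 3 a lower value in JAML-positive cells, and 0 passed. Lgals9, which encodes a galectin reported to bind TIM-3, was at 149 and 103 CPM in JAML-positive and 89.0 and 111 CPM in JAML-negative A and B (log2 fold change 0.33, SE 0.31, edgeR adjusted p = 0.815). Lgals3bp, which encodes a galectin-binding glycoprotein, was at -0.35 (SE 0.35) on the log2 fold scale, Lgals4 at -1.11 (SE 0.91) and Lgals8 at -0.28 (SE 0.41). Lgals4 was low throughout, at 3.32 and 12.6 CPM in JAML-positive and 27.1 and 8.44 CPM in JAML-negative A and B.

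The 4 S100 members showed 3 patterns. S100a4 encodes a protein that binds non-muscle myosin IIA. It was at 290.0 and 108 CPM in JAML-positive A and B (7683 and 3373 counts), against 126 and 128 CPM in JAML-negative A and B (3564 and 3530 counts). The JAML-negative pair was nearly equal, JAML-positive A was 2.28 times its mean and JAML-positive B was below it. On the log2 scale the fold change came to 0.63 (SE 0.38, edgeR adjusted p = 0.666), with a 95% interval from 0.87-fold to 2.76-fold. Without JAML-positive A it was -0.23, and 1.19 without JAML-positive B. S100a10 encodes the annexin A2 partner p11, which has lost calcium binding. It was at 487 and 254 CPM in JAML-positive and 291 and 279.9 CPM in JAML-negative A and B. The pattern was that of S100a4, with JAML-positive A at 1.7 times the JAML-negative mean (log2 fold change 0.37, SE 0.28, edgeR adjusted p = 0.766).

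S100a6, which encodes calcyclin, was low in JAML-positive B rather than high in A. It was at 161 and 54.3 CPM in JAML-positive A and B (4270 and 1702 counts), against 159 and 138 CPM in JAML-negative A and B (4499 and 3805 counts). JAML-positive A and JAML-negative A were almost equal. It was the 1 member with a negative log2 fold change, -0.49 (SE 0.40, edgeR adjusted p = 0.783), with 0.12 without JAML-positive B and -1.44 without JAML-positive A. S100a11, which encodes the annexin A1 partner, was level, at 162 and 161 CPM in JAML-positive and 152 and 157 CPM in JAML-negative A and B. Its groups did not overlap, but the difference was small (log2 fold change 0.06, SE 0.25, edgeR adjusted p = 0.969). The 95% interval ran from 0.719-fold to 1.52-fold.

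The neighbours S100a4 and S100a6 can be set against each other within each library, where scaling cancels. S100a4 had 1.8 and 1.98 counts per count of S100a6 in JAML-positive A and B, against 0.792 and 0.928 in JAML-negative A and B. Both JAML-positive ratios lay above both JAML-negative ones, a log2 difference of 1.14. The exact two-sided permutation test gave p = 0.333, the smallest value that 2 against 2 libraries allow. Any pair that separates gives that value, so the test cannot decide. The pair was picked among 6 pairs of members after its values were seen. Ratios of Lgals1 to Lgals3 separated too, at 7.61 and 5.29 in JAML-positive and 4.02 and 4.91 in JAML-negative A and B. How often pairs of other genes separate was not tested. S100a10 had 0.865 and 0.623 counts per count of its partner Anxa2 in JAML-positive A and B, and 0.679 and 0.737 in JAML-negative A and B, so those ratios overlapped.

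Among the other S100 genes, 2 were tested. S100a13, which encodes a protein that takes part in the release of growth factors without a signal peptide, was at 29.0 and 27.8 CPM in JAML-positive and 9.22 and 17.0 CPM in JAML-negative A and B. Its groups did not overlap (log2 fold change 1.11, SE 0.64, edgeR adjusted p = 0.641). S100a1 had 0.0 and 3.76 CPM in JAML-positive and 0.106 and 4.38 CPM in JAML-negative A and B. S100a8, a defining gene of neutrophils and monocytes, had 0 and 0 counts in JAML-positive and 1 and 0 counts in JAML-negative A and B. A count of 0 allows up to 3 counts, 0.113 and 0.0957 CPM in JAML-positive A and B, by counting error alone.

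The annexin members differed widely in level, Anxa2 being abundant and Anxa1 low. Anxa1 encodes a glucocorticoid-regulated protein that acts on formyl peptide receptors. It had 591 and 349 counts in JAML-positive A and B (22.3 and 11.1 CPM), against 142 and 1 counts in JAML-negative A and B (5.01 and 0.0362 CPM). Both JAML-positive libraries were above both JAML-negative ones. On the log2 scale the JAML-negative libraries differed more from each other (5.58) than the groups did, a difference that rests on 1 count. The single count in JAML-negative B has an exact Poisson 95% interval of 0.0253 to 5.57 counts, for counting error only. The log2 fold change was 2.67 (SE 1.21, unadjusted p = 0.045 and adjusted p = 0.61 with edgeR), and its 95% interval ran from 1.05-fold to 38.8-fold. It was 1.72 without JAML-negative B and 8.66 without JAML-negative A, so its size is set by the JAML-negative library used. Its receptors Fpr1 and Fpr2 had between 0 and 4 counts in every library, and were looked up after their values were seen.

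Anxa2 encodes the membrane-binding annexin that forms a tetramer with p11. It was at 563 and 407 CPM in JAML-positive A and B, against 429 and 380 CPM in JAML-negative A and B. JAML-positive B lay between the JAML-negative libraries (log2 fold change 0.26, SE 0.23, edgeR adjusted p = 0.796). Of the 5 other annexins tested, 3 had higher and 2 lower values in JAML-positive cells, and 0 passed. Anxa7 was at 91.9 and 81.7 CPM in JAML-positive and 48.3 and 52.0 CPM in JAML-negative A and B (log2 fold change 0.79, SE 0.35, edgeR adjusted p = 0.61). Its libraries agreed within each group, and DESeq2 called it (adjusted p = 0.0158). Anxa5, the annexin used to stain dying cells, was at 140.2 and 88.3 CPM in JAML-positive and 70.9 and 78.4 CPM in JAML-negative A and B. Log2 fold changes were 1.59 for Anxa4 (SE 0.84) and -0.27 for Anxa11 (SE 0.34).

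**Figure D2:**
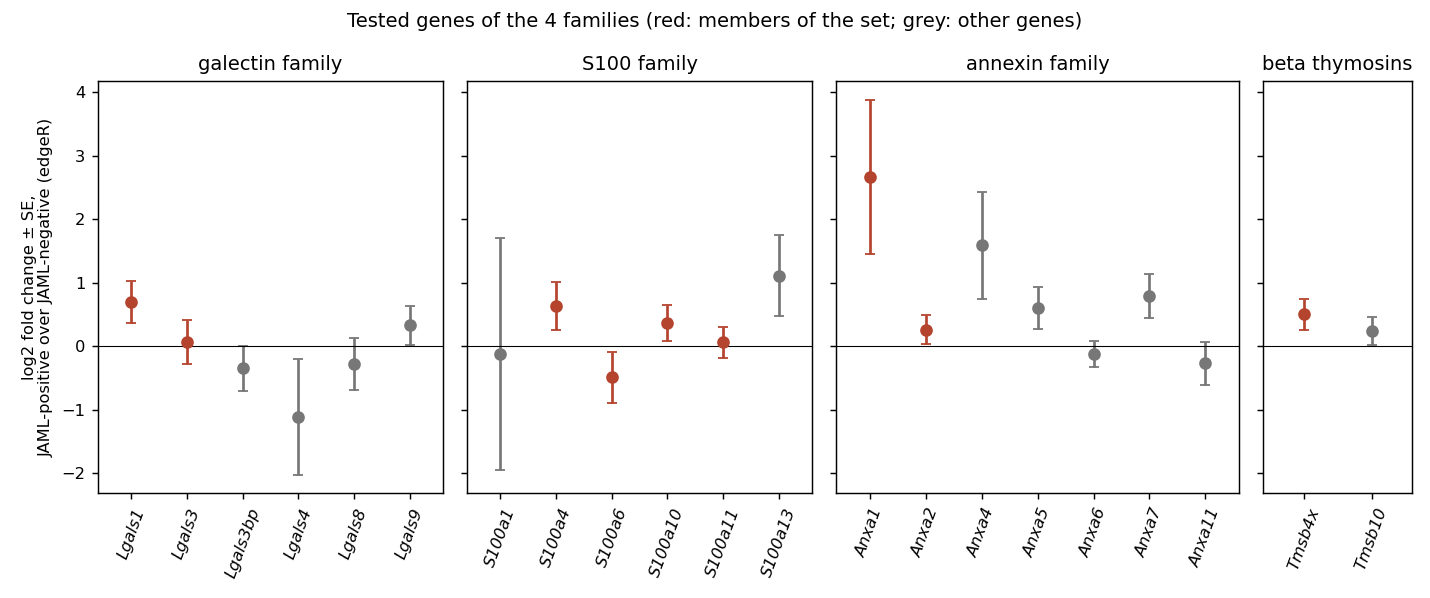
The log2 fold change of each tested gene of the galectin, S100, annexin and beta thymosin lists, JAML-positive over JAML-negative, with bars for the SE from edgeR. Followed members are red and other genes grey. Anxa1 has the highest value (2.67) with an SE of 1.21, and Lgals4 the lowest (-1.11).

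Vim was abundant and level, at 1099 and 1063 CPM in JAML-positive and 1024 and 1114 CPM in JAML-negative A and B. The groups overlapped (log2 fold change 0.02, SE 0.19, edgeR adjusted p = 0.989), and the 95% interval of 0.762-fold to 1.34-fold bounds the difference. Of the 8 other tested genes of intermediate filaments and their linkers, 3 had higher and 5 lower values and 0 passed. Lmnb2, a B-type lamin of the nuclear envelope, was at 27.5 and 44.1 CPM in JAML-positive and 10.2 and 5.98 CPM in JAML-negative A and B (log2 fold change 2.16, SE 0.68, edgeR adjusted p = 0.61). Syne1, which links the nucleus to the cytoskeleton, was at 88.0 and 102 CPM in JAML-positive and 143 and 152 CPM in JAML-negative A and B (-0.63, SE 0.28, edgeR adjusted p = 0.61).

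Tmsb4x was the most abundant member, ranked between 3 and 13 among all genes in a library. It was at 5412 and 3208 CPM in JAML-positive A and B (143394 and 100550 counts), against 2800.4 and 3292 CPM in JAML-negative A and B (79293 and 90850 counts). JAML-positive A was 1.78 times the JAML-negative mean, a log2 difference of 0.83. Over all tested genes under 1000 nucleotides the median of that difference was 0.80. JAML-positive B lay between the JAML-negative libraries. The log2 fold change was 0.50 (SE 0.24), with 0.83 without JAML-positive B and 0.08 without JAML-positive A. Tmsb10, the related thymosin beta 10, was at 2188 and 1450.5 CPM in JAML-positive and 1519 and 1558 CPM in JAML-negative A and B. It too was high in JAML-positive A alone (log2 fold change 0.24, SE 0.22, edgeR adjusted p = 0.806). Per kilobase of the longest transcript the levels averaged 4257 CPM for Tmsb4x, 634 for Lgals1, 479 for S100a10, 367 for Vim, 327 for S100a4, 309 for S100a11, 195 for Anxa2, 164 for S100a6, 63.7 for Lgals3 and 5.75 for Anxa1. Of neighbours in that order, Vim, S100a4 and S100a11 lay close together, while S100a4 spanned 290.0 to 108 CPM between the JAML-positive libraries, before division by length.

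**Figure D3:**
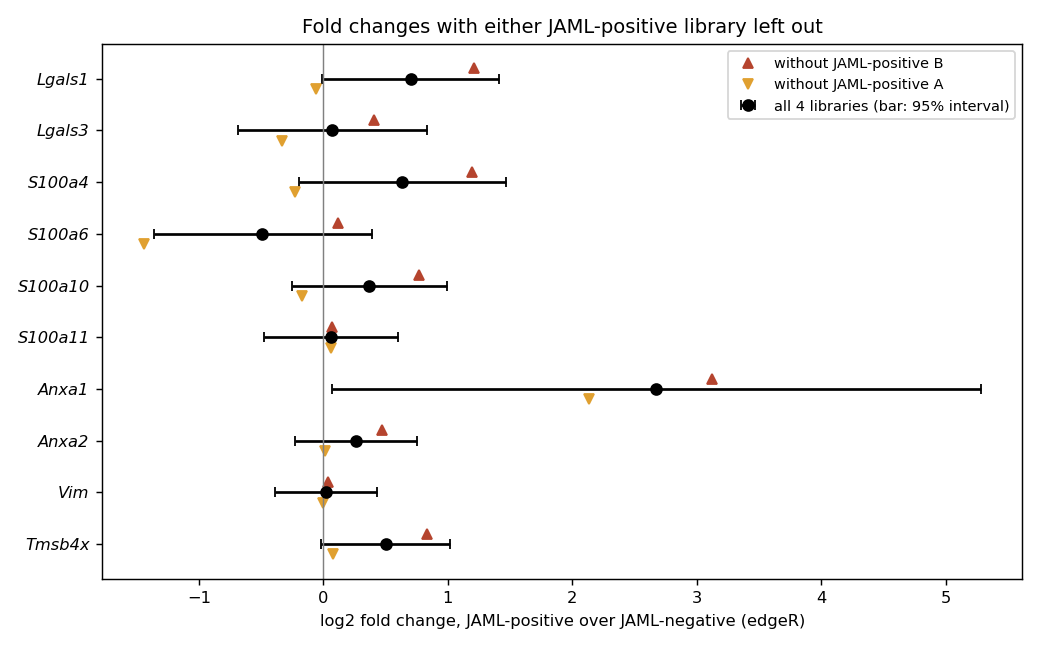
The log2 fold change of the 10 genes, JAML-positive over JAML-negative, from edgeR. Black points and bars are the estimate and 95% interval from 4 libraries, red triangles leave out JAML-positive B and yellow ones leave out JAML-positive A. For Lgals1 the value is 1.21 without B and -0.06 without A, and for S100a11 and Vim the 2 settings nearly coincide.

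Within the JAML-positive pair all 10 members were higher in JAML-positive A than in JAML-positive B, with a median log2 difference of 0.85, against 0.0 over all tested genes. S100a6 in A was at 2.97 times its level in B. A difference above 0.5 was found for 7 of the 10, against 27.2% of all tested genes, and one below -0.5 for 0 of the 10, against 25.8%. S100a6 (1.57), S100a4 (1.43) and Lgals1 (1.27) had the largest log2 differences, and S100a11 (0.02) and Vim (0.05) the smallest. Each is 1 library against 1, so the difference has no replicate check, and Lgals1 and Tmsb4x were chosen for it. In the JAML-negative pair 6 of the 10 were higher in A, with a median of 0.09, and 1 of the 10, Anxa1, had a difference above 0.5, against 27.0% of all tested genes. Lgals3 had the largest difference there (0.42) after Anxa1. In bulk RNA, a higher level of a transcript per cell and a higher share of the cells that carry it cannot be told apart.

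Transcript length moved with this difference. The longest transcripts of 6 members, Lgals1, S100a4, S100a6, S100a10, S100a11 and Tmsb4x, are under 1000 nucleotides. Over the 565 tested genes in that class the median log2 difference between JAML-positive A and B was 0.61, and over the 596 genes above 8000 nucleotides it was -0.32. In the JAML-negative pair the medians were 0.0 and -0.01. S100a6, S100a4, Lgals1 (1.27), S100a10 (0.94) and Tmsb4x (0.75) lay above the median of their class, and S100a11 (0.02) below it. For JAML-positive A over the JAML-negative mean, the median of that class was 0.80. Lgals1 (1.21) and S100a4 (1.19) lay above it and Tmsb4x (0.83) near it. S100a10 (0.77), S100a6 (0.12) and S100a11 (0.07) lay below it. With trends of length and GC content removed, the members' median difference between JAML-positive A and B was 0.39. It was then 1.01 for S100a6, 0.74 for S100a4, 0.74 for Lgals1, 0.34 for S100a10, 0.22 for Tmsb4x and -0.67 for S100a11. In the comparison of groups the same removal gave a median of 0.10, with 0.36 for Lgals1, 0.21 for S100a4, 0.20 for Tmsb4x, 0.04 for S100a10 and -0.20 for S100a11. S100a6 was then farther from 0, at -0.84 (SE 0.31, edgeR adjusted p = 0.692), against -0.49 without the removal. The 4 longer members had 2.52 for Anxa1, 0.17 for Anxa2, -0.03 for Vim and -0.10 for Lgals3.

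**Figure D4:**
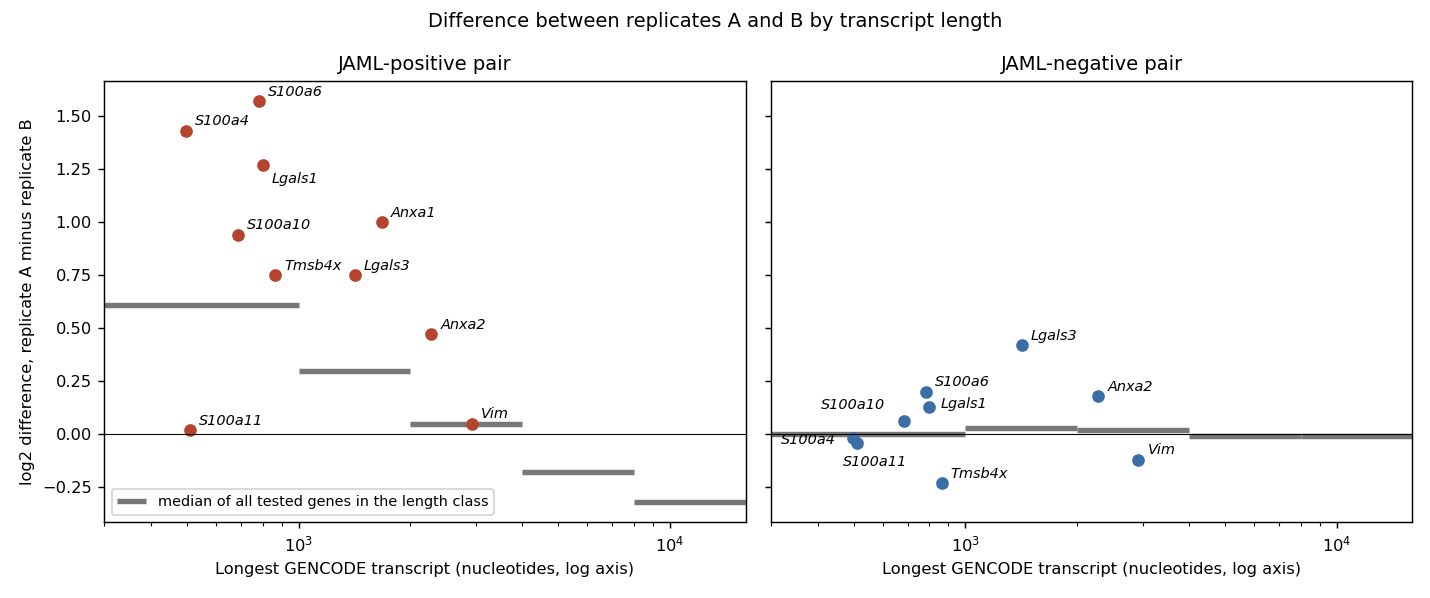
The log2 difference between replicates A and B of the JAML-positive pair (left, red) and the JAML-negative pair (right, blue), against the length of the longest transcript on a log axis. Grey lines are medians of all tested genes per length class. On the left the medians run from 0.61 in the shortest class to -0.32 in the longest, and 5 of the 6 members under 1000 nucleotides lie above their class. Anxa1 is left out on the right, where JAML-negative B had 1 count.

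Genes other than the 10 members with the profile most like theirs were sought by distance over 4 libraries, among 5745 genes of at least 30 CPM. Likeness is a Euclidean distance on log2 CPM centred on each gene's mean. For Lgals1 the nearest were Cops5 (distance 0.128), Plxnc1 (0.139) and Atp5l (0.188), and for Tmsb4x Lpgat1 (0.0281), Fkbp3 (0.063) and Tma7 (0.0859). Cops5, a subunit of the COP9 signalosome, was at 124 and 52.9 CPM in JAML-positive and 58.4 and 57.9 CPM in JAML-negative A and B. The mean profile of the 10 members was nearest to Tm9sf1, Ccdc12, Bex3, Glmp and Mrps15 (0.0639 to 0.111), and rested on the single count of Anxa1. Without Anxa1, a choice made after its value was seen, the nearest 3 were Psmd13 (0.0264), Selenok (0.0377) and Bora (0.0447).

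Of the 32 tested genes of actin and actin-binding proteins, 24 had higher and 8 lower values in JAML-positive cells, and 0 passed. Of all tested genes 50.7% had higher values. The median log2 fold change was 0.19, against 0.01 over all genes. JAML-positive A held the highest level for 19 of the 32, against 27.1% of all tested genes. Transcript length was not taken into account for this list. Cfl1, which encodes the actin-severing protein cofilin, was at 1636 and 1127 CPM in JAML-positive and 1153 and 984 CPM in JAML-negative A and B (log2 fold change 0.37, SE 0.22, edgeR adjusted p = 0.655). Myl12a, a regulatory light chain of non-muscle myosin, was high in JAML-positive A and had JAML-positive B just above the JAML-negative libraries, at 524 and 312 CPM in JAML-positive and 293 and 307 CPM in JAML-negative A and B. Vcl, which encodes vinculin of adhesion sites, was higher in JAML-positive B than in A, at 21.2 and 27.2 CPM in JAML-positive and 6.22 and 9.02 CPM in JAML-negative A and B (1.68, SE 0.75, edgeR adjusted p = 0.61). Capg, which caps actin filaments, had a log2 fold change of 0.85 (SE 0.38).

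Of 14 tested partners and ligands of the members, 6 had higher and 8 lower values and 0 passed. Ahnak, the large scaffold that binds the annexin A2 and p11 complex, had lower values, at 779 and 1018 CPM in JAML-positive and 1381 and 1322 CPM in JAML-negative A and B (log2 fold change -0.59, SE 0.20, edgeR adjusted p = 0.61). Its groups did not overlap, and DESeq2 called it (adjusted p = 0.0158). Ptprc, which encodes CD45, a glycoprotein bound by galectin-1, was at 2428 and 2803 CPM in JAML-positive and 3491 and 3239 CPM in JAML-negative A and B (-0.36, SE 0.18). Havcr2 and Lag3, receptors of exhausted cells reported to bind galectins, differed between groups by 1.11 (SE 0.37) and 0.80 (SE 0.38) on the log2 scale, each with an edgeR adjusted p of 0.61.

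The list of effector T cell companions was mixed, with 10 of 21 genes higher and 11 lower and 0 passing. Gzmb, a granzyme of cytotoxic granules, was at 1973 and 1532 CPM in JAML-positive and 1133 and 1147 CPM in JAML-negative A and B (log2 fold change 0.62, SE 0.20, edgeR adjusted p = 0.61). Ccl5, an effector chemokine, was at 501 and 444 CPM in JAML-positive and 655 and 898 CPM in JAML-negative A and B (-0.72, SE 0.22). Ifitm1, an interferon-induced membrane protein, had a value of 2.04 (SE 0.70). Groups did not overlap for these 3 genes, and DESeq2 called all 3. Of the 81 tested genes of these lists that are not members, DESeq2 called 9: Ahnak, Anxa7, Ccl5, Gzmb, Ifitm1, Klf6, Lmnb2, Syne1 and Vcl, beside 6.77% of all genes it tested. Klf6 is named for that call, after its values were seen.

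Several members are also made by myeloid cells. Of the 13 macrophage and monocyte markers measured, 0 were at 0 in any library. They summed to 101 and 77.5 CPM in JAML-positive and 82.9 and 81.8 CPM in JAML-negative A and B. Of the 12 tested, 6 had higher and 6 lower values in JAML-positive cells. The 5 neutrophil markers summed to 21.8 and 10.1 CPM in JAML-positive and 8.23 and 0.978 CPM in JAML-negative A and B, most of it from Mmp9 (572 and 315 counts in JAML-positive, 217 and 23 counts in JAML-negative A and B), with S100a8 at 0 counts in both JAML-positive libraries. The 11 dendritic cell and MHC class II markers summed to 448 and 274 CPM in JAML-positive and 189 and 177 CPM in JAML-negative A and B. The 8 plasmacytoid dendritic cell markers summed to 329 and 325 CPM in JAML-positive and 125 and 137 CPM in JAML-negative A and B. All 8 had higher values in JAML-positive cells. Siglech among them had 1491 and 1527 counts in JAML-positive and 161 and 13 counts in JAML-negative A and B. Much of each sum came from Irf8 and Ccr9. Irf8 was at 80.1 and 100.4 CPM in JAML-positive and 30.9 and 48.5 CPM in JAML-negative A and B. Ccr9 was at 79.5 and 50.7 CPM in JAML-positive and 35.9 and 38.8 CPM in JAML-negative A and B. Spib (582 and 83 counts) and Klk1 (4 and 536 counts) differed widely between JAML-positive A and B. The 8 B and plasma cell markers summed to 178 and 139 CPM in JAML-positive and 59.4 and 83.1 CPM in JAML-negative A and B. Stromal and endothelial markers were at 123 and 148 CPM in JAML-positive and 139 and 146 CPM in JAML-negative A and B, most of it from Pecam1. Of the 5 tested, 4 had higher and 1 lower values in JAML-positive cells. Kdr had 189 and 212 counts in JAML-positive and 13 and 12 counts in JAML-negative A and B. The other endothelial markers did not share that pattern. Pecam1 was at 99.7 and 123 CPM in JAML-positive and 125 and 145 CPM in JAML-negative A and B. Cdh5 had 7 and 307 counts in JAML-positive and 11 and 6 counts in JAML-negative A and B. Vwf had 1 and 0 counts in JAML-positive and 0 and 3 counts in JAML-negative A and B. Natural killer cell markers were at 154 and 171 CPM in JAML-positive and 171 and 171 CPM in JAML-negative A and B. Hepatocyte markers summed to 18.0 and 22.0 CPM in JAML-positive and 53.1 and 27.4 CPM in JAML-negative A and B. Of the 2 tested, Alb had 384 and 464 counts in JAML-positive and 541 and 115 counts in JAML-negative A and B, and Afp had 94 and 224 counts in JAML-positive and 613 and 640 counts in JAML-negative A and B. The CD4 and regulatory T cell markers summed to 315 and 405 CPM in JAML-positive and 267 and 297 CPM in JAML-negative A and B. In the dendritic cell list Cd74, the MHC class II chaperone, was at 145 and 72.6 CPM in JAML-positive and 27.7 and 25.1 CPM in JAML-negative A and B. Itgax, which encodes the integrin CD11c, went the other way, at 75.0 and 61.3 CPM in JAML-positive and 124 and 116 CPM in JAML-negative A and B. In the B and plasma cell list Jchain, which links the units of polymeric antibodies, had levels of 98.3 and 50.9 CPM in JAML-positive and 4.56 and 0.326 CPM in JAML-negative A and B. Xbp1, a plasma cell factor that other secretory cells also make, was at 52.5 and 54.5 CPM in JAML-positive and 49.0 and 65.1 CPM in JAML-negative A and B, so its groups overlapped. The part of these cells in the members' levels was not tested.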

How the data were processed

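The members and the gene lists were chosen with earlier results of these data known. The authors deposited 1 table of raw counts per gene for 4 libraries, built from total RNA with a SMARTER mRNA kit, per the labels' protocols. Build GRCm38 (mm10) is named in the submitters' processing notes. No source used here gives the aligner, the counter or its strand setting. Samples were grouped by their labels into sorted CD8 T cells with JAML and without it, with 2 libraries each.

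Genes were filtered with filterByExpr (minimum count 10), scaled by TMM and tested with the quasi-likelihood test of edgeR 4.0.16 (robust, R 4.3.3) with Benjamini-Hochberg adjustment over 11563 genes at 0.05. The edgeR test was checked on simulated data with known changes. It called 6 of 65 genes changed by 1 on the log2 scale and 28 of 66 changed by 2. Of those changed by 3 it called 35 of 64, and it made 4 false calls. A gene that did not pass can therefore still differ between the groups. DESeq2 1.42.0 and limma-voom (limma 3.58.1), RLE factors, library totals without ribosomal and mitochondrial genes, 2 other filters, a replicate block, removal of length and GC trends by loess (span 0.5) and leaving out each library were tried. Log2 CPM used a prior count of 2. Lengths are of the longest GENCODE transcript, found for 13585 of 14934 genes. Coordinates come from RefSeq, matched for 14681 genes by Entrez ID. Libraries held 27530187 to 30569728 counts, so 3 counts, taken as the limit that a count of 0 allows, are 0.0957 to 0.113 CPM. Intervals from counts cover counting error only.

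Named were all 10 members, up to 4 other genes of each list with the smallest p, markers of other cell types, Jaml, and the genes nearest in profile. Where the text names a gene outside this, it says so.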

Additional observations from a re-analysis of the deposited data

How the results depend on the processing

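None of the 10 genes passed under any alternative run. The number of genes called over all was 0 with edgeR, 2 with no filter on low counts, 2 with a mean of at least 5 CPM, and 835 with DESeq2, which called 9 of 81 other genes of the lists and 6.77% of all genes it tested. The cause of these differences was not tested. The median log2 fold change of the 10 genes was 0.31, and 0.26 to 0.32 with the other filters, scalings and tools. With length and GC trends removed it was 0.10 with 6 of 10 positive, and Lgals3 (-0.10), S100a11 (-0.20) and Vim (-0.03) turned negative. Vim was also at -0.01 with library totals without ribosomal and mitochondrial genes. The members' median log2 difference between JAML-positive A and B, 0.85 as reported, was 0.39 with length and GC trends removed, an alternative chosen after seeing the data. Leaving out each library in turn gave a median of -0.03 to 0.62 and 4 to 10 genes with a higher value. It gave log2 fold changes of -0.06 to 1.21 for Lgals1, -0.33 to 0.41 for Lgals3, -0.23 to 1.19 for S100a4, -1.44 to 0.12 for S100a6, -0.17 to 0.77 for S100a10, 0.04 to 0.09 for S100a11, 1.72 to 8.66 for Anxa1, 0.01 to 0.47 for Anxa2, -0.04 to 0.09 for Vim and 0.08 to 0.83 for Tmsb4x. The lone library left in a group was then assumed to vary like the other group. The letters A and B do not pair the libraries by the labels, and deviations of same-lettered libraries had a correlation of 0.018 over 11563 genes. With the letter as a replicate block the median was 0.28, Lgals1 was at 0.58 and 0 genes were called. Anxa1 had 142 counts and 1 count in JAML-negative A and B, whose totals were close, so the spread between libraries rather than depth limits its value.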
